A study of Mus musculus with 36 samples.

Results

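DNA methylation at CpG sites is written by DNA methyltransferases and removed by way of the TET dioxygenases. Dnmt1 copies methylation onto newly made DNA during replication, and Uhrf1 brings Dnmt1 to hemimethylated sites. Dnmt3a and Dnmt3b methylate unmethylated CpGs de novo. Tet1, Tet2 and Tet3 oxidize 5-methylcytosine, after which the oxidized base is lost by dilution through replication or replaced by base excision repair. In B cell progenitors Tet2 and Tet3 are known for acting at enhancers, among them those of the immunoglobulin light chain genes.

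The 7 genes described here are Tet1, Tet2, Tet3, Dnmt1, Uhrf1, Dnmt3a and Dnmt3b, chosen by gene symbol in the 3 RNA-seq tables of a study of the deacetylase Sirt7 and the transcription factor Pax5 in mouse B cell progenitors. They are 7 of 46078 genes in the table of sorted cells, 7 of 35896 in the table of Pax5-/- progenitors and 7 of 18721 in the table of cultured pro-B cells. All 7 passed the filter on low values in each table, at least 10 normalized counts in 2 libraries. The study named Tet1 for its values in the cultured cells, so that its pattern there is a description and not independent evidence. The tables hold 24 libraries in 12 groups of 2, and 6 lists of Pax5 ChIP-seq peaks accompany them.

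The sorted cells were pro-B and pre-B cells from the bone marrow of wild-type mice and of Sirt7-/- mice, both on a 129Sv background and 8 to 16 weeks old, with 1 library per stage from each of 4 mice. The Sirt7-/- mice carry a germline deletion of part of the Sirt7 gene, in every tissue. The Pax5-/- cells were progenitors on a C57BL/6 background, labelled bone marrow pro-B cells and described as fetal liver-derived in the methods, that carried a retroviral empty vector (EV) or a vector for wild-type Pax5 (Pax5WT), Pax5 with the lysine K198 changed to glutamine (Pax5K198Q, which resembles an acetylated lysine) or to arginine (Pax5K198R, which cannot be acetylated). The cultured cells were pro-B cells from wild-type mice with EV and from Sirt7-/- mice with EV, Pax5WT or Pax5K198R. Their mice were also on the 129Sv background and 8 to 16 weeks old. These cells and the Pax5-/- progenitors were grown on OP9 stromal feeder cells with IL-7, SCF and FLT3-L. Each Pax5 form was made from a vector and not from the Pax5 locus, and EV carried none. The cultured cells also expressed their own Pax5, at 25995 and 37114 normalized counts in Sirt7-/- cells with EV. For the sorted samples the source names give pro-B for every replicate 1 and pre-B for every replicate 2, which disagrees with the titles of 4 samples. The groups here are those of the titles.

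Marker genes separated the sorted libraries by their titles. Dntt, the terminal transferase of pro-B cells, had 19432 to 30750 normalized counts in the 4 pro-B libraries and 131 to 3838 in the 4 pre-B libraries. Il2ra, a pre-B cell marker, had 1593 to 3760 and 16329 to 26038. The highest pre-B value of Dntt, 3838, was in Sirt7-/- replicate 2, the library that also had the most Vpreb1 among pre-B libraries, 3268 against 288 to 982 in the other 3. Cd3d had at most 29.8 normalized counts and Cd3e at most 44.8, and Lck, which B cell progenitors also express, was the most abundant of the 7 T cell markers, at 2961 to 4511. Thy1 had up to 1422 and Tcf7 up to 1099. The 6 myeloid markers, with Itgam the most abundant, summed to 24245 and 18291 in wild-type and 19176 and 8376 in Sirt7-/- pro-B cells, and to 13339 and 13436 in wild-type and 10584 and 10283 in Sirt7-/- pre-B cells. Of the plasma cell markers, Jchain had 20006 to 57036 in pro-B and 881 to 2191 in pre-B libraries, while Sdc1 had 2091 to 2954 and 3416 to 4770. The erythroid marker Hba-a1, a hemoglobin alpha chain, had 19328 normalized counts in the pro-B library and 22303 in the pre-B library of the Sirt7-/- replicate 2 mouse, and between 2365 and 5263 in the other 6 libraries. Hbb-bs, a hemoglobin beta chain, had 5908 and 22235 in these libraries of that mouse and between 692 and 5133 in the other 6. Ighd, a marker of later B cells, had 63406 to 140086 normalized counts in pre-B and 9999 to 12856 in pro-B libraries. Sirt7 itself had 2692 and 2533 normalized counts in pro-B cells of wild-type mice and 363 and 366 in Sirt7-/- pro-B cells, and 5613 and 5219 against 1066 and 821 in pre-B cells.

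Uhrf1 and Dnmt1 were the most abundant of the 7 genes and Tet1 the least. Divided by the length of the longest transcript, the level of Uhrf1 in wild-type sorted pro-B cells was 11507 ± 387 normalized counts per kb (SD, n = 2) and that of Dnmt1 was 5868 ± 190. Tet3 followed with 738 ± 29.7 normalized counts per kb, Dnmt3a with 482 ± 1.56, Dnmt3b with 373 ± 15.7, Tet2 with 135 ± 5.50 and Tet1 with 51.8 ± 23.3. No neighbours in this order came within an SD of each other. Uhrf1 was first and Dnmt1 second in all 12 groups, and Tet1 was last in all 12. With the mean length of the coding transcripts in place of the longest, Tet1 was sixth of the 7 in both sorted Sirt7-/- groups and last in the other 10. In Pax5-/- progenitors with EV Dnmt3b ranked next after Dnmt1, at 766 ± 113 normalized counts per kb, above Tet3 at 483 ± 75.4 and Dnmt3a at 242 ± 19.9. With the mean transcript length Dnmt3b ranked below Tet3 and Dnmt3a there.

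The first comparison asks how the 7 genes differ between pro-B and pre-B cells. The maintenance methylation genes Uhrf1 and Dnmt1 fell and Tet2 and Tet3 rose from pro-B to pre-B cells in wild-type mice. Uhrf1 fell 3.18-fold and Dnmt1 2.93-fold, while Tet2 rose 2.40-fold and Tet3 1.42-fold. These 4 of 7 passed the threshold of an adjusted p of 0.05 with limma and are termed called, beside 40.2% of the 17649 genes tested, so that a call in this comparison is common. In these bulk libraries fewer cells of a type and less RNA per cell cannot be told apart.

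**Figure D1:**
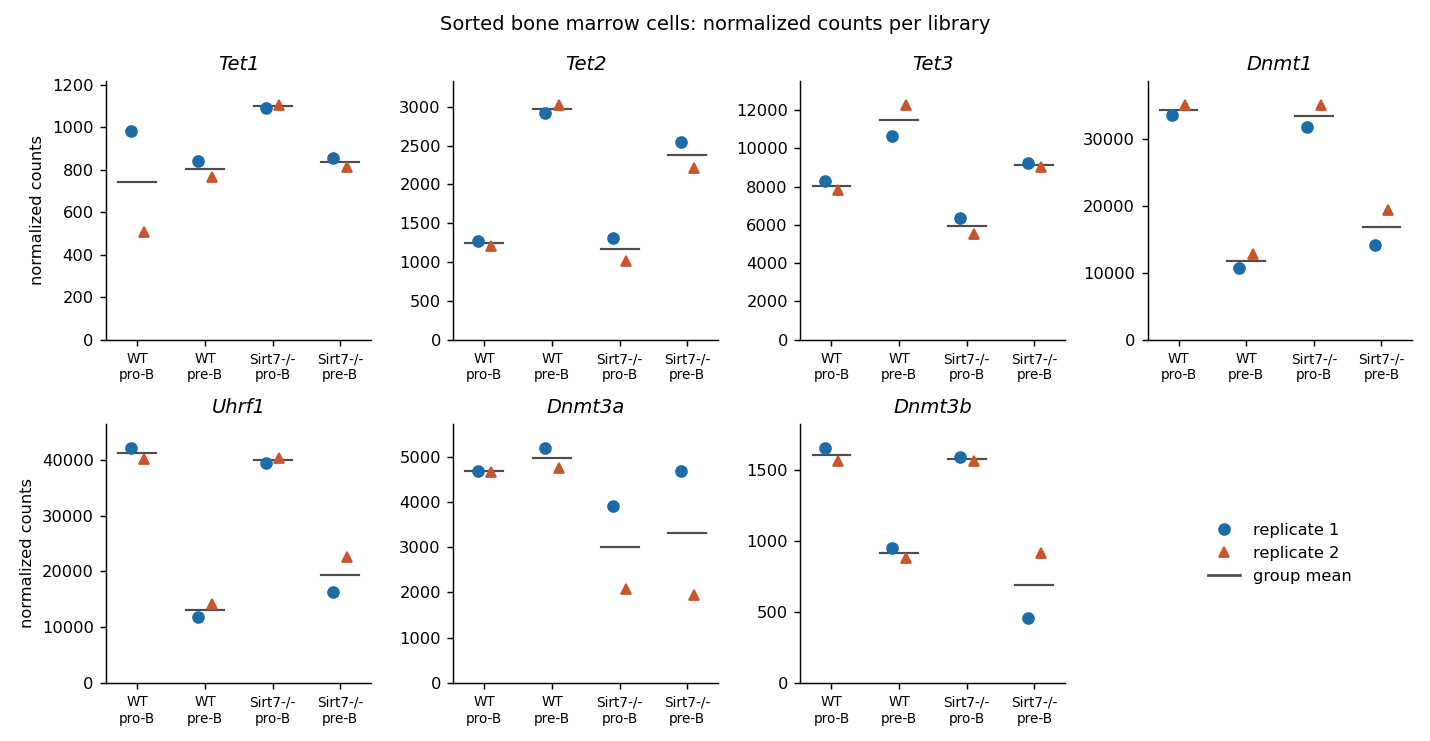
Normalized counts (y axis, linear, from 0) of the 7 genes in the 4 groups of sorted cells (x axis), with 1 point per library, a shape for each replicate number and a line at the group mean. Dnmt1 and Uhrf1 are lower, and Tet2 and Tet3 higher, in every pre-B than in every pro-B library of the same genotype.

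Uhrf1, the reader of hemimethylated CpGs, had 42245 and 40284 normalized counts in wild-type pro-B replicates 1 and 2 and 11874 and 14185 in wild-type pre-B cells. In Sirt7-/- mice it had 39586 and 40372 normalized counts in pro-B and 16278 and 22550 in pre-B cells. Every pre-B library lay below every pro-B library. In wild-type cells the log2 fold change was -1.67 ± 0.158 (SE from limma, as for every log2 fold change here; adjusted p = 0.000441). In Sirt7-/- cells it was -1.06 ± 0.158 (limma, adjusted p = 0.00313), a 2.09-fold fall.

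Dnmt1, the maintenance methyltransferase, had 33658 and 35233 normalized counts in pro-B cells of wild-type mice and 10770 and 12812 in wild-type pre-B cells. In Sirt7-/- mice the values were 31902 and 35093 in pro-B and 14236 and 19386 in pre-B cells. The stages did not overlap. From pro-B to pre-B the log2 fold change was -1.55 ± 0.157 in wild-type (limma, adjusted p = 0.000538) and -1.01 ± 0.157 in Sirt7-/- cells (adjusted p = 0.00361). Within each of the 4 mice the pre-B to pro-B ratio of Dnmt1 was 0.320 and 0.364 in wild-type and 0.446 and 0.552 in Sirt7-/- mice, and that of Uhrf1 was 0.281, 0.352, 0.411 and 0.559 in the same order.

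The genes of DNA replication moved with Dnmt1 and Uhrf1. All 18 genes of a list of replication genes fell in wild-type and in Sirt7-/- cells, and the medians of their log2 fold changes were -1.74 and -1.22. Over all genes tested the median was -0.04 in both. The median pre-B to pro-B ratio of these 18 genes was 0.278 and 0.319 in the wild-type mice and 0.369 and 0.491 in the Sirt7-/- mice, the same order over mice as the ratios of Dnmt1 and Uhrf1. The part of proliferation in the fall of the maintenance genes was not tested.

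The promoters of the maintenance genes are shown because these genes fell together and a Pax5 peak lies at each, at that of Dnmt1 in 1 list alone. RefSeq lists 3 start windows for Dnmt1 and 2 for Uhrf1 on GRCm38.p6, and the windows of 300 bases printed are those that hold the peak summit with the highest fold enrichment. The capitals mark matches to TTTNNCGC, letters that hold the textbook binding site of the E2F factors of the cell cycle, on either strand. The Dnmt1 window lies at chr9:20952574-20952873 on the minus strand and that of Uhrf1 at chr17:56304063-56304362 on the plus strand.
Dnmt1: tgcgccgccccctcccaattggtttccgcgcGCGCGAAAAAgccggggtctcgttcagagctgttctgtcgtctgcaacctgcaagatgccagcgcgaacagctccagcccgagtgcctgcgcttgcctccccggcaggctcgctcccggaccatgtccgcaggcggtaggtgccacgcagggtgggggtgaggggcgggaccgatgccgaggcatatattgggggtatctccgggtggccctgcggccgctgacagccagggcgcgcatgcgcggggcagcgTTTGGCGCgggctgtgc
Uhrf1: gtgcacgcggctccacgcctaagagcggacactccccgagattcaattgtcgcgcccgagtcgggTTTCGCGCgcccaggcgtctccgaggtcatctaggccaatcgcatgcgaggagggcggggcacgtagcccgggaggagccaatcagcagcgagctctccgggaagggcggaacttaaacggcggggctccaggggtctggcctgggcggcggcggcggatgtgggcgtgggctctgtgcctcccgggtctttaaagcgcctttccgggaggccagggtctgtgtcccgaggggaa
The Dnmt1 window had 3 matches, of which 2 on the reverse strand overlap, GCGCGAAA and GCGAAAAA as printed. The Uhrf1 window had 1, TTTCGCGC. A match was present in 5.17% of 32851 promoter windows of this length. Over all their start windows a match was in 1 of 3 for Dnmt1, in both for Uhrf1 and in none of the 7 for the other 5 genes.

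Tet2, which oxidizes methylcytosine and is often mutated in blood cancers, had 1276 and 1205 normalized counts in wild-type pro-B libraries and 2928 and 3031 in wild-type pre-B cells. In Sirt7-/- mice it had 1310 and 1014 in pro-B and 2545 and 2219 in pre-B cells. Every pre-B library was above every pro-B library. In log2 terms the fold change was 1.26 ± 0.147 in wild-type (limma, adjusted p = 0.000858) and 1.04 ± 0.147 in Sirt7-/- cells (adjusted p = 0.00252).

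Tet3, the most abundant TET gene per kb in these cells, had 8273 and 7815 normalized counts in wild-type pro-B and 10639 and 12295 in wild-type pre-B cells. In Sirt7-/- mice the values were 6383 and 5514 in pro-B and 9220 and 9022 in pre-B cells. The stages did not overlap within a genotype. On the log2 scale the rise was 0.51 ± 0.108 in wild-type (limma, adjusted p = 0.00977) and 0.62 ± 0.108 in Sirt7-/- cells (adjusted p = 0.00555). The wild-type call was lost without wild-type pre-B replicate 2 (adjusted p = 0.0530) and without wild-type pro-B replicate 2 (adjusted p = 0.0600), and that in Sirt7-/- cells was lost without both libraries of the Sirt7-/- replicate 2 mouse (adjusted p = 0.0677, chosen after their erythroid markers were seen).

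Tet1 did not share this pattern. It had 982 and 508 normalized counts in wild-type pro-B and 843 and 768 in wild-type pre-B cells, and the groups overlapped. In Sirt7-/- mice it had 1091 and 1108 in pro-B and 855 and 815 in pre-B cells. Its log2 fold change was 0.19 ± 0.281 in wild-type (limma, adjusted p = 0.630) and -0.40 ± 0.281 in Sirt7-/- cells (adjusted p = 0.312). Wild-type pro-B replicate 2 was the lowest of the 8 libraries. Without it the wild-type log2 fold change was -0.29 (adjusted p = 0.220), and without wild-type pro-B replicate 1 it was 0.66 (adjusted p = 0.0288).

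Of the de novo enzymes, Dnmt3b was lower in pre-B cells. It had 1657 and 1562 normalized counts in wild-type pro-B and 951 and 882 in wild-type pre-B cells, and 1589 and 1567 against 460 and 912 in Sirt7-/- mice. No pre-B library reached a pro-B library. With limma the log2 fold change was -1.28 ± 0.287 in Sirt7-/- cells (limma, adjusted p = 0.0140) and -0.81 ± 0.287 in wild-type cells, which missed the threshold (adjusted p = 0.0609). The wild-type fall was called with DESeq2 (adjusted p = 0.0167), beside 38.2% of all genes, in a fit of the 4 wild-type libraries alone (0.00749) and with libraries rescaled to the same total (0.0439). The Sirt7-/- call was lost without pro-B replicate 1 (adjusted p = 0.0614) or replicate 2 (adjusted p = 0.0611) and in a fit of the 4 Sirt7-/- libraries alone (0.0544). With Dnmt3b, 5 of the 7 genes were called in Sirt7-/- cells, beside 35.7% of all genes tested.

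Dnmt3a differed between mice more than between stages. It had 4684 and 4662 normalized counts in wild-type pro-B, 5199 and 4750 in wild-type pre-B, 3916 and 2083 in Sirt7-/- pro-B and 4687 and 1946 in Sirt7-/- pre-B cells. The low values were both from the Sirt7-/- replicate 2 mouse, which also had the high hemoglobin values given above, and the part of these cells in the low values was not tested. Between pre-B and pro-B cells the log2 fold change of Dnmt3a was 0.09 ± 0.428 in wild-type (limma, adjusted p = 0.889) and 0.08 ± 0.428 in Sirt7-/- cells (adjusted p = 0.904).

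The partners of the 7 genes moved in both directions between the stages. Counts of partners that rose or fell between the stages are counts of called genes. Of all genes tested 40.2% were called in wild-type and 35.7% in Sirt7-/- cells. Of 9 maintenance partners, a list that includes Dnmt1 and Uhrf1, 6 were called lower and 1 higher in wild-type mice. The list's median on the log2 scale was -1.55. Among those that fell were Hells, the remodeler of methylated chromatin, with a log2 fold change of -1.71 (limma, adjusted p = 0.00158), and its activator Cdca7, with -2.25 (adjusted p = 0.000413). Zbtb24 rose, with 0.54 (adjusted p = 0.0128). In Sirt7-/- cells 6 fell and 1 rose again, with a median of -1.06.

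Of 10 tested TET partners, a list that includes the TET genes, 5 were called higher in wild-type mice. Ogt, the O-GlcNAc transferase that binds TET proteins, rose by 1.27 on the log2 scale (limma, adjusted p = 0.000483). Idh1, which makes the 2-oxoglutarate that TET enzymes use, rose by 1.14 (adjusted p = 0.00188). Hmces, which shields abasic sites, had a log2 fold change of -1.09 (adjusted p = 0.0142). In Sirt7-/- cells 3 were called higher, and Hmces had a log2 fold change of -0.67 (adjusted p = 0.0822). Of 11 tested genes of excision repair after TET, 3 rose and 6 fell in wild-type mice, with a median of -0.41, among them the glycosylase Smug1 with a log2 fold change of 1.26 (adjusted p = 0.00211) and the endonuclease Apex1 with -1.75 (adjusted p = 0.000475). In Sirt7-/- cells 2 of these 11 rose and 4 fell, with a median of -0.26.

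Of 10 tested genes of methyl donor supply, 8 fell and 1 rose in wild-type mice and 7 fell and 1 rose in Sirt7-/- cells, and the medians were -1.46 and -1.09 on the log2 scale. Shmt1, which feeds 1-carbon units into the folate cycle, had -2.85 in wild-type cells (limma, adjusted p = 0.000371). Of 8 readers of methylated CpGs, 1 rose and 2 fell in wild-type and 2 rose and 1 fell in Sirt7-/- cells, with medians of -0.13 and 0.12. Qser1, which keeps methylation valleys free of Dnmt3 activity, fell in both genotypes, with log2 fold changes of -1.36 in wild-type (adjusted p = 0.000843) and -1.23 in Sirt7-/- cells (adjusted p = 0.00182). It was the only gene called of the 3 tested on the de novo list in wild-type cells and 1 of 2 called, with Dnmt3b, in Sirt7-/- cells, where the list medians were -0.81 and -1.23.

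The second comparison asks what loss of Sirt7 does to the 7 genes at each stage. None of the 7 was called in pro-B cells with limma, where 0.0623% of all genes were called, none with edgeR on the recovered reads, beside 0.0567%, and none with DESeq2, beside 0.647%. At an unadjusted p under 0.05 limma had 1 of the 7 and 1048 of all genes. In pre-B cells limma again called none, beside 0.085% of all genes, with 3 of the 7 and 2405 of all genes at an unadjusted p under 0.05. edgeR called none there, beside 0.0283% of all genes. DESeq2 called Uhrf1 (adjusted p = 0.0410), beside 4.19% of the 15888 genes to which it gave an adjusted p.

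In pre-B cells both maintenance genes were higher in both Sirt7-/- libraries than in both wild-type libraries, at the values given above. On the log2 scale the difference was 0.56 ± 0.158 for Uhrf1 (95% interval 0.19 to 0.94, limma, adjusted p = 0.213) and 0.50 ± 0.157 for Dnmt1 (0.13 to 0.87, adjusted p = 0.245). The replication genes had a median of 0.52 in the same comparison, with 17 of 18 above 0 and none called, against 0.02 over all genes. Stage markers differed as well. Dntt had 423 and 3838 normalized counts in Sirt7-/- and 131 and 157 in wild-type pre-B cells, and Vpreb1 had 982 and 3268 against 288 and 348. The 6 pro-B markers had a median of 1.15, with 5 above 0, and the 4 mature B markers a median of 0.60, with all 4 above 0 and none called on either list. Ighd had 140086 and 100170 against 82047 and 63406. The part of these stages in the values of Uhrf1 and Dnmt1 was not tested. Sirt7-/- pre-B replicate 2 was the library with the most Uhrf1, Dntt and Vpreb1 of the pre-B libraries, and without both libraries of that mouse the log2 fold change of Uhrf1 was 0.33 (adjusted p = 0.528). In pro-B cells the log2 fold changes were -0.05 for Uhrf1 and -0.04 for Dnmt1.

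Tet3 was lower in Sirt7-/- than in wild-type libraries at both stages without overlap. Its log2 fold change was -0.44 ± 0.108 in pro-B (limma, adjusted p = 0.584) and -0.33 ± 0.108 in pre-B cells (adjusted p = 0.263), and neither passed the threshold. Tet2 had -0.11 in pro-B and -0.33 in pre-B cells, and Tet1 had 0.64 and 0.05. The pro-B value of Tet1 was 1.11 without wild-type pro-B replicate 1 and 0.16 without replicate 2. For Dnmt3a the log2 fold changes were -0.71 ± 0.428 and -0.72 ± 0.428, with 95% intervals from -1.73 to 0.31 and from -1.73 to 0.30. The spread came from the low mouse described above. The other Sirt7-/- mouse, with 3916 in pro-B and 4687 in pre-B cells, lay closer to wild type, at 4662 to 4684 and 4750 to 5199. All 6 myeloid markers were below wild type at both stages, with median log2 fold changes of -1.01 in pro-B and -1.20 in pre-B cells and none called, and their part in these values was not tested.

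The change from pro-B to pre-B cells was compared between the genotypes in an interaction test. No member passed it with limma, beside 0.00567% of all genes called and 959 at an unadjusted p under 0.05. None passed with edgeR, beside 0.00567%, or with DESeq2, beside 0.643%. The difference in log2 fold change, Sirt7-/- minus wild type, was 0.61 for Uhrf1 (95% interval 0.08 to 1.14, limma, adjusted p = 0.885) and 0.54 for Dnmt1 (0.02 to 1.07, adjusted p = 0.902). These were the members with an unadjusted p under 0.05.

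The third comparison asks how each Pax5 form changes the 7 genes in Pax5-/- progenitors. Tet1 fell 6.86-fold with Pax5K198R against EV, and Dnmt3b fell 1.83-fold. The other 5 genes were not called with any form in the fit of all 8 libraries without a replicate block. Pax5WT and Pax5K198Q gave no call among the 7 against EV. The comparisons with EV share its 2 libraries.

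**Figure D2:**
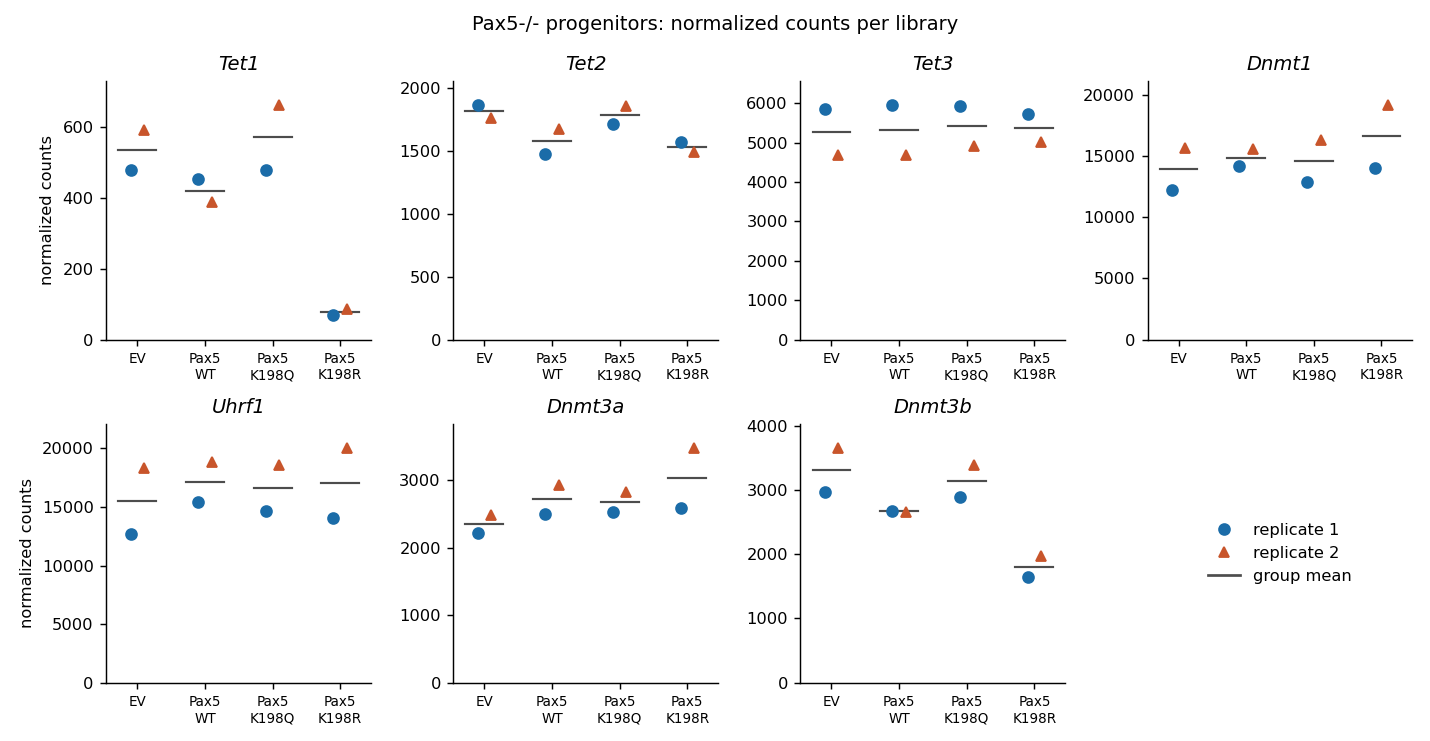
Normalized counts (y axis, linear, from 0) of the 7 genes in Pax5-/- progenitors with EV, Pax5WT, Pax5K198Q or Pax5K198R (x axis), with 1 point per library, a shape for each replicate number and a line at the group mean. Tet1 stands at 68.6 and 85.6 with Pax5K198R and at 388 to 663 in the other 6 libraries.

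Tet1 had 477 and 592 normalized counts with EV, 453 and 388 with Pax5WT, 479 and 663 with Pax5K198Q and 68.6 and 85.6 with Pax5K198R. Both Pax5K198R libraries lay below the other 6, among which EV and Pax5K198Q overlapped and Pax5WT lay just under them. Against EV the log2 fold change with Pax5K198R was -2.78 ± 0.223 (95% interval -3.29 to -2.26, limma, adjusted p = 0.000501). This call and that of Dnmt3b made 2 of 7, beside 9.92% of all 13345 genes tested.

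The fall of Tet1 also held against the other Pax5 forms. Against Pax5WT the log2 fold change with Pax5K198R was -2.44 ± 0.223, a 5.41-fold fall (limma, adjusted p = 0.00370), and Tet1 was the only member called, beside 2.87% of all genes. Against Pax5K198Q it was -2.86 ± 0.223, a 7.27-fold fall (adjusted p = 0.00249), with 2 of 7 called beside 5.01% of all genes. All 12 alternatives kept each of these 3 calls of Tet1, with log2 fold changes between -2.94 and -2.62 against EV, -2.59 and -2.28 against Pax5WT, and -3.10 and -2.63 against Pax5K198Q.

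Dnmt3b, a de novo enzyme with a higher level than Dnmt3a per kb of the longest transcript but not of the mean one in these progenitors, had 2964 and 3655 normalized counts with EV, 2669 and 2659 with Pax5WT, 2889 and 3386 with Pax5K198Q and 1644 and 1971 with Pax5K198R. Both Pax5K198R libraries were below the other 6. Its log2 fold change with Pax5K198R was -0.87 ± 0.141 against EV (limma, adjusted p = 0.00826), -0.80 ± 0.141 against Pax5K198Q (adjusted p = 0.0215) and -0.57 ± 0.141 against Pax5WT, which missed the threshold (adjusted p = 0.0952). With the replicate as a block the last was called (adjusted p = 0.00780), beside 7.52% of all genes. Without EV replicate 2 the adjusted p against EV was 0.0549, and the call against Pax5K198Q was lost without either Pax5K198Q library (adjusted p = 0.0725 and 0.158) or Pax5K198R replicate 1 (adjusted p = 0.0542).

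The Pax5 transcript differed between the forms and was highest with Pax5K198R, where Tet1 was lowest. With Pax5K198Q both Pax5 and Tet1 were above their values with Pax5WT. It had 2201 and 2103 normalized counts with EV, 6458 and 6152 with Pax5WT, 8918 and 8963 with Pax5K198Q and 21162 and 16609 with Pax5K198R. Its log2 fold change between Pax5K198R and Pax5WT was 1.57 (limma, adjusted p = 0.00290) and between Pax5K198R and Pax5K198Q 1.07 (adjusted p = 0.00526). A list of 7 B lineage markers, with Rag1 the most abundant, summed to 11415 and 12668 normalized counts with EV, 37069 and 40837 with Pax5WT, 29236 and 27296 with Pax5K198Q and 68272 and 70209 with Pax5K198R. Of the markers of other cells, the 4 of plasma cells, with Jchain the most abundant, summed to 76369 and 74259 with EV, 50347 and 43794 with Pax5WT, 57927 and 50161 with Pax5K198Q and 39073 and 31224 with Pax5K198R. The 4 NK cell markers, with Nkg7 the most abundant, summed to 502 and 610, 222 and 251, 306 and 341, and 133 and 88.8 in the same order. With Pax5K198R against EV 2 of 4 tested T cell markers were called lower (median -0.96 on the log2 scale). Of 4 tested myeloid markers 2 were called lower and 1 higher (median -2.01). Of the 5 stroma and feeder markers 1 was called lower (median 0.13). Cd3d had at most 6.99 and Cd3e at most 1 normalized count. The part of the Pax5 dose or of these cells in the fall of Tet1 and Dnmt3b was not tested.

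None of the other 5 genes was called with any form in the fit of all 8 libraries without a block. Tet2 had 1870 and 1764 normalized counts with EV, 1479 and 1676 with Pax5WT, 1719 and 1860 with Pax5K198Q and 1573 and 1489 with Pax5K198R. Its log2 fold change between Pax5K198R and EV was -0.25 ± 0.105 (limma, adjusted p = 0.214). Tet3 ranged from 4682 to 5969 normalized counts, Dnmt1 from 12264 to 19218, Uhrf1 from 12709 to 20046 and Dnmt3a from 2211 to 3479, and the groups overlapped for Tet3, Dnmt1 and Uhrf1. Replicate 2 had the higher Dnmt1, Uhrf1 and Dnmt3a and the lower Tet3 in every group. For Dnmt3a the log2 fold change between Pax5K198R and EV was 0.36 ± 0.158 (adjusted p = 0.232), with both Pax5K198R libraries, 2584 and 3479, above both EV libraries, 2211 and 2483. It was called with the replicate as a block (adjusted p = 0.0186), beside 21.2% of all genes, and without Pax5K198R replicate 1 (0.0495).

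Pax5WT against EV gave log2 fold changes of -0.34 ± 0.223 for Tet1 (limma, adjusted p = 0.607) and -0.30 ± 0.141 for Dnmt3b (adjusted p = 0.392), with none of the 7 called beside 3.25% of all genes. Pax5K198Q against EV gave 0.09 ± 0.223 for Tet1 and -0.07 ± 0.141 for Dnmt3b, with none called beside 0.922% of all genes. Between Pax5K198Q and Pax5WT Tet1 had 0.43 ± 0.223, with a 95% interval from -0.09 to 0.94, and again none was called, beside 0.0225% of all genes. None of the 7 had an unadjusted p under 0.05 in these 3 comparisons, against 1921, 1049 and 462 of all genes. Counts could not be recovered in this table, so that no count model was run.

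Calls among the listed partners with Pax5K198R against EV lay on the lists of readers, TET partners, de novo methylation and methyl donor supply, beside 9.92% of all genes called. Mbd2, a reader of methylated CpGs, rose by 0.66 on the log2 scale (limma, adjusted p = 0.00362), and the reader Zbtb38 had a log2 fold change of -1.004 (adjusted p = 0.0307). Of 8 readers 2 were called higher and 1 lower, with a median of -0.07. Of 10 TET partners 1 was called higher and 2 lower, with Tet1 among the latter, and the median was -0.11. Dnmt3b was the only call among the 3 tested on the de novo list. The medians of the 9 maintenance partners, 0.25, of the 12 repair genes, 0.10, and of the 11 methyl donor genes, 0.11, came with 0, 0 and 1 called, and the median of all genes was 0.01. The 18 replication genes had a median of 0.36, with none called. Against EV Pax5WT gave 1 call over these lists, Mtap of the methyl donor list, which rose by 0.47 (adjusted p = 0.0343).

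The fourth comparison asks whether added Pax5 changes the 7 genes in Sirt7-/- pro-B cells in culture. Tet1 was highest in Sirt7-/- cells with EV and lower with either Pax5 form, but its replicates differed widely and no difference passed the threshold in the fit of all 8 libraries without a block. With the replicate as a block the falls with Pax5WT and Pax5K198R were called, beside 1.96% and 11.6% of all genes. The study named Tet1 from these same libraries, so that the calls describe its pattern and are not independent evidence. Uhrf1 was lower and Tet2 higher in Sirt7-/- cells with Pax5K198R than in wild-type cells with EV, and these were the calls among the 7 in this table in that fit without a block. Sirt7 had 1324 and 905 normalized counts in wild-type cells and 325 to 407 in the 6 Sirt7-/- libraries. The 3 comparisons that use Sirt7-/- EV share its libraries, and so do the 3 that use wild-type EV.

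**Figure D3:**
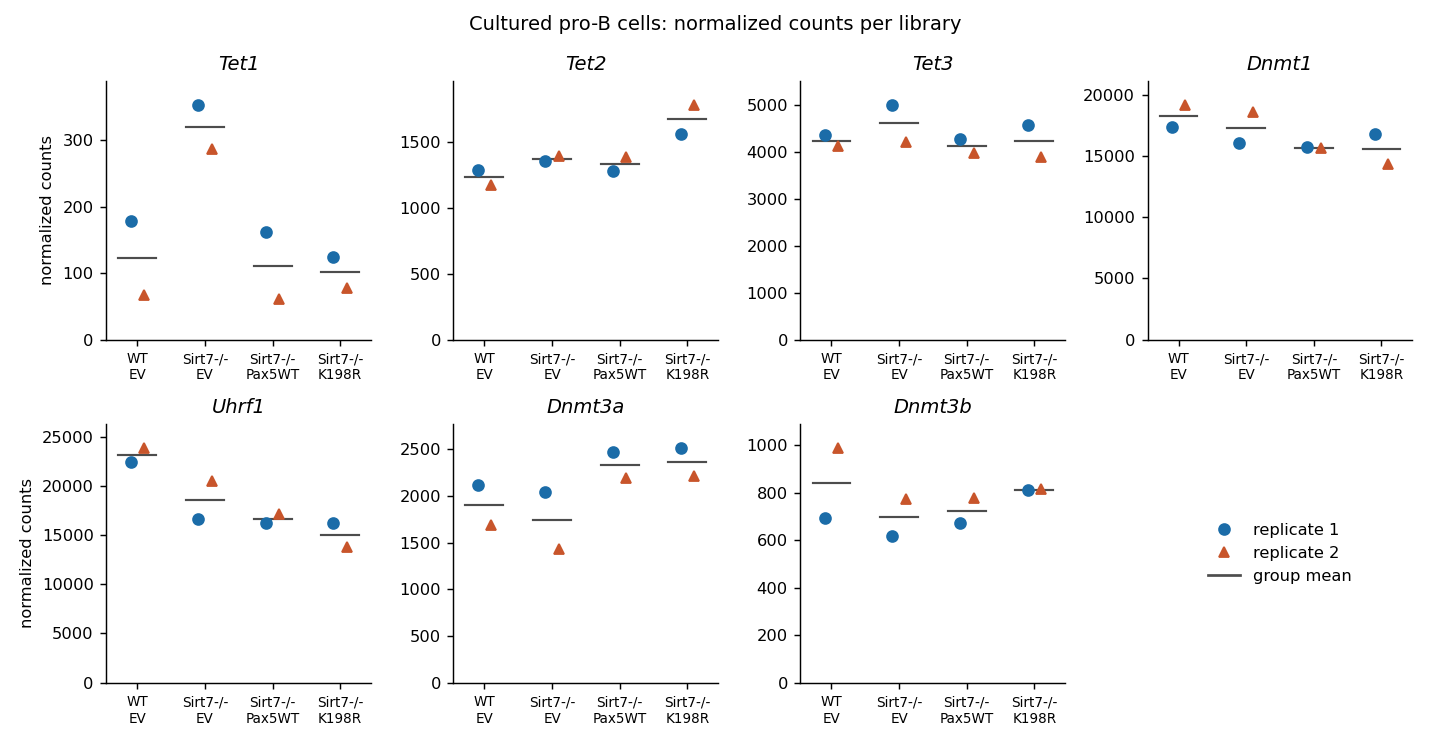
Normalized counts (y axis, linear, from 0) of the 7 genes in cultured pro-B cells, wild type with EV and Sirt7-/- with EV, Pax5WT or Pax5K198R (x axis), with 1 point per library, a shape for each replicate number and a line at the group mean. Both Sirt7-/- EV libraries, at 354 and 286 for Tet1, are above the other 6, which lie between 61.0 and 179.

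Tet1 had 179 and 66.7 normalized counts in wild-type cells with EV, 354 and 286 in Sirt7-/- cells with EV, 161 and 61.0 with Pax5WT and 125 and 78.4 with Pax5K198R. Both Sirt7-/- EV libraries lay above all others, and replicate 2 was the lower in every group. The log2 fold change of Sirt7-/- EV against wild-type EV was 1.53 ± 0.569 (95% interval 0.22 to 2.85, limma, adjusted p = 0.415). It was 2.24 without wild-type EV replicate 1 and 0.83 without wild-type EV replicate 2. None of the 7 was called there, beside 0.557% of all 13651 genes tested, with 2 of the 7, Tet1 and Uhrf1, and 1322 of all genes at an unadjusted p under 0.05.

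With Pax5WT in Sirt7-/- cells the log2 fold change of Tet1 against Sirt7-/- EV was -1.67 ± 0.569 (95% interval -2.99 to -0.35, limma, adjusted p = 0.382). With the replicate as a block the adjusted p was 0.0474, beside 1.96% of all genes called. The log2 fold change was -2.36 without Pax5WT replicate 1 and -0.98 without Pax5WT replicate 2. Without the block no member was called, beside 0.0366% of all genes, with 2 members, Tet1 and Dnmt3a, and 1353 genes at an unadjusted p under 0.05. With Pax5K198R it was -1.68 ± 0.569 (-2.99 to -0.36, adjusted p = 0.160), and no member was called, beside 4.83% of all genes, with 3 members and 2512 genes at an unadjusted p under 0.05. The adjusted p of Tet1 with Pax5K198R was 0.0130 with the replicate as a block, beside 11.6% of all genes called, and 0.0273 in a fit of these 4 libraries alone. Leaving out a library gave log2 fold changes from -2.01 to -1.35. For Sirt7-/- EV against wild-type EV the adjusted p of Tet1 was 0.0529 with the block. Between Pax5K198R and Pax5WT Tet1 differed by -0.01 ± 0.569, and the interval of -1.32 to 1.31 also allows a difference of more than 2-fold either way. None of the 7 was called in that comparison, beside 0.425% of all genes, with 1 member, Tet2, and 1199 genes at an unadjusted p under 0.05.

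Uhrf1 had 22365 and 23861 normalized counts in wild-type EV cells, 16663 and 20518 in Sirt7-/- EV cells, 16174 and 17146 with Pax5WT and 16239 and 13811 with Pax5K198R. Both wild-type libraries were above the other 6. Against wild-type EV the log2 fold change was -0.63 ± 0.133 with Pax5K198R (limma, adjusted p = 0.0192), a 1.54-fold fall, -0.47 ± 0.133 with Pax5WT (adjusted p = 0.0941, and 0.0498 with the replicate as a block, beside 12.4% of all genes) and -0.32 ± 0.133 with EV (adjusted p = 0.491). The call was lost without Pax5K198R replicate 2 (adjusted p = 0.138) and without wild-type EV replicate 2 (adjusted p = 0.0800). Dnmt1 had 17395 and 19224, 16046 and 18621, 15747 and 15646, and 16820 and 14394 normalized counts in the same order of groups. Both wild-type libraries were above those with Pax5WT or Pax5K198R and overlapped those of Sirt7-/- EV, and the log2 fold change of Pax5K198R against wild-type EV was -0.23 ± 0.121 (adjusted p = 0.274).

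Tet2 had 1290 and 1178 normalized counts in wild-type EV, 1356 and 1398 in Sirt7-/- EV, 1284 and 1386 with Pax5WT and 1567 and 1789 with Pax5K198R. Both Pax5K198R libraries were above the other 6. Its log2 fold change between Pax5K198R and wild-type EV was 0.44 ± 0.116 (limma, adjusted p = 0.0418), which was lost when any of the 4 libraries was left out, with adjusted p-values between 0.0700 and 0.253. The 2 calls in this comparison stood beside 13.9% of all genes. Pax5WT against wild-type EV gave none among the 7, beside 4.23% of all genes, with Uhrf1 the member at an unadjusted p under 0.05 and 2659 genes in all.

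The remaining members overlapped in most groups. Tet3 ranged from 3882 to 5003 normalized counts and Dnmt3b from 619 to 990. Dnmt3a had 2120 and 1695 in wild-type EV, 2045 and 1436 in Sirt7-/- EV, 2477 and 2199 with Pax5WT and 2519 and 2216 with Pax5K198R. All 4 libraries with added Pax5 were above the 4 with EV. The log2 fold change of Dnmt3a against Sirt7-/- EV was 0.45 ± 0.187 with Pax5WT (limma, adjusted p = 0.487) and 0.46 ± 0.187 with Pax5K198R (adjusted p = 0.235, and 0.0285 with the replicate as a block, beside 11.6% of all genes).

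Other cells and stages also differed between the cultures. Markers of stroma and feeder cells, with Cxcl12 the most abundant, summed to 3971 and 2814 normalized counts in wild-type EV, 2577 and 3947 in Sirt7-/- EV, 4385 and 9526 with Pax5WT and 3310 and 7273 with Pax5K198R. The 5 T cell markers of this table, with Thy1 the most abundant, summed to 3211 and 2181, 2849 and 1648, 1061 and 403, and 793 and 390 in the same order, with replicate 2 the lower in every group, as for Tet1. Against Sirt7-/- EV 2 of 3 tested were called lower with Pax5K198R (median -2.09 on the log2 scale) and none with Pax5WT (median -1.63), while Cd3d had at most 1.02 normalized counts. Of the 4 plasma cell markers 2 were called lower with Pax5K198R. Ighd had 814 and 899, 2174 and 3045, 5115 and 12225, and 10319 and 25102 normalized counts in the same order. Pax5 had 23862 and 27134 in wild-type EV, 25995 and 37114 in Sirt7-/- EV, 43024 and 43260 with Pax5WT and 38690 and 45426 with Pax5K198R. The part of these in the values of Tet1, Tet2, Uhrf1 and Dnmt3a was not tested.

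Of the listed partners Parp1, an enzyme of strand break repair, was lower in Sirt7-/- EV than in wild-type EV cells, with a log2 fold change of -0.67 (limma, adjusted p = 0.0351). It was the only gene called over the partner lists in that comparison. Of the stage markers, 1 of 5 tested pro-B markers was called lower there. With Pax5K198R against Sirt7-/- EV, Uhrf2, the relative of Uhrf1, fell with -0.50 (adjusted p = 0.0288), and the median of the 9 maintenance partners was -0.15 against 0.01 for all genes. Against wild-type EV, Sirt7-/- cells with Pax5K198R had lower Uhrf2, with -0.72 (adjusted p = 0.00283), and lower Parp1, with -1.07 (adjusted p = 0.000646). The medians there were -0.33 for maintenance partners, with 2 of 9 called lower, and -0.05 for TET partners, with 2 of 10 called higher and 1 lower. For the replication genes the median was -0.20 with none called, against 0.00 for all genes, of which 13.9% were called.

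**Figure D4:**
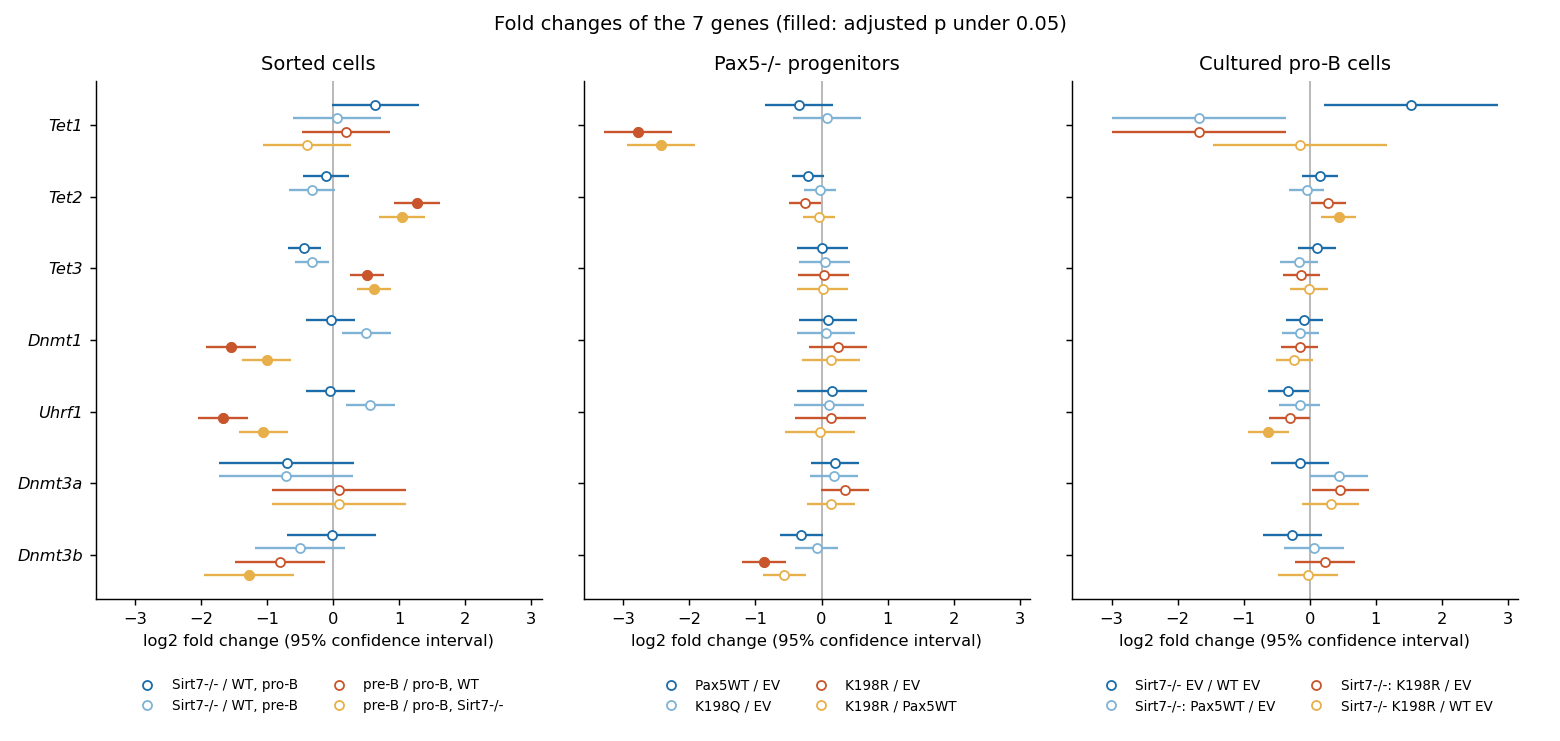
Log2 fold changes (x axis) with 95% confidence intervals of the 7 genes (y axis) in 4 comparisons of each table, from limma. Filled points have an adjusted p under 0.05, and the fall of Tet1 with Pax5K198R in Pax5-/- progenitors, -2.78 against EV, is the largest of the log2 fold changes shown.

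The fifth comparison asks where Pax5 peaks lie near the 7 genes in Pax5-/- progenitors with each form. The lists held 10646 and 11830 peaks for Pax5WT, 3750 and 3957 for Pax5K198Q and 12158 and 13997 for Pax5K198R. Peaks were called per sample over its input, and between 61.3% and 76.9% of a list overlapped the list of the other replicate by at least a base. The peaks in the list of Pax5K198R replicate 2 carry the number of another replicate, and the list was used as its label says. A peak found in both replicates between 10 kb before the start and the end of the gene was present for Dnmt3a and Uhrf1 with Pax5WT, for Dnmt3a with Pax5K198Q and for Tet3, Dnmt3a and Uhrf1 with Pax5K198R. These are 2, 1 and 3 of 7, beside 27.6%, 10.2% and 31.5% of 21911 protein-coding genes, and with 7 genes such counts are near the background.

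**Figure D5:**
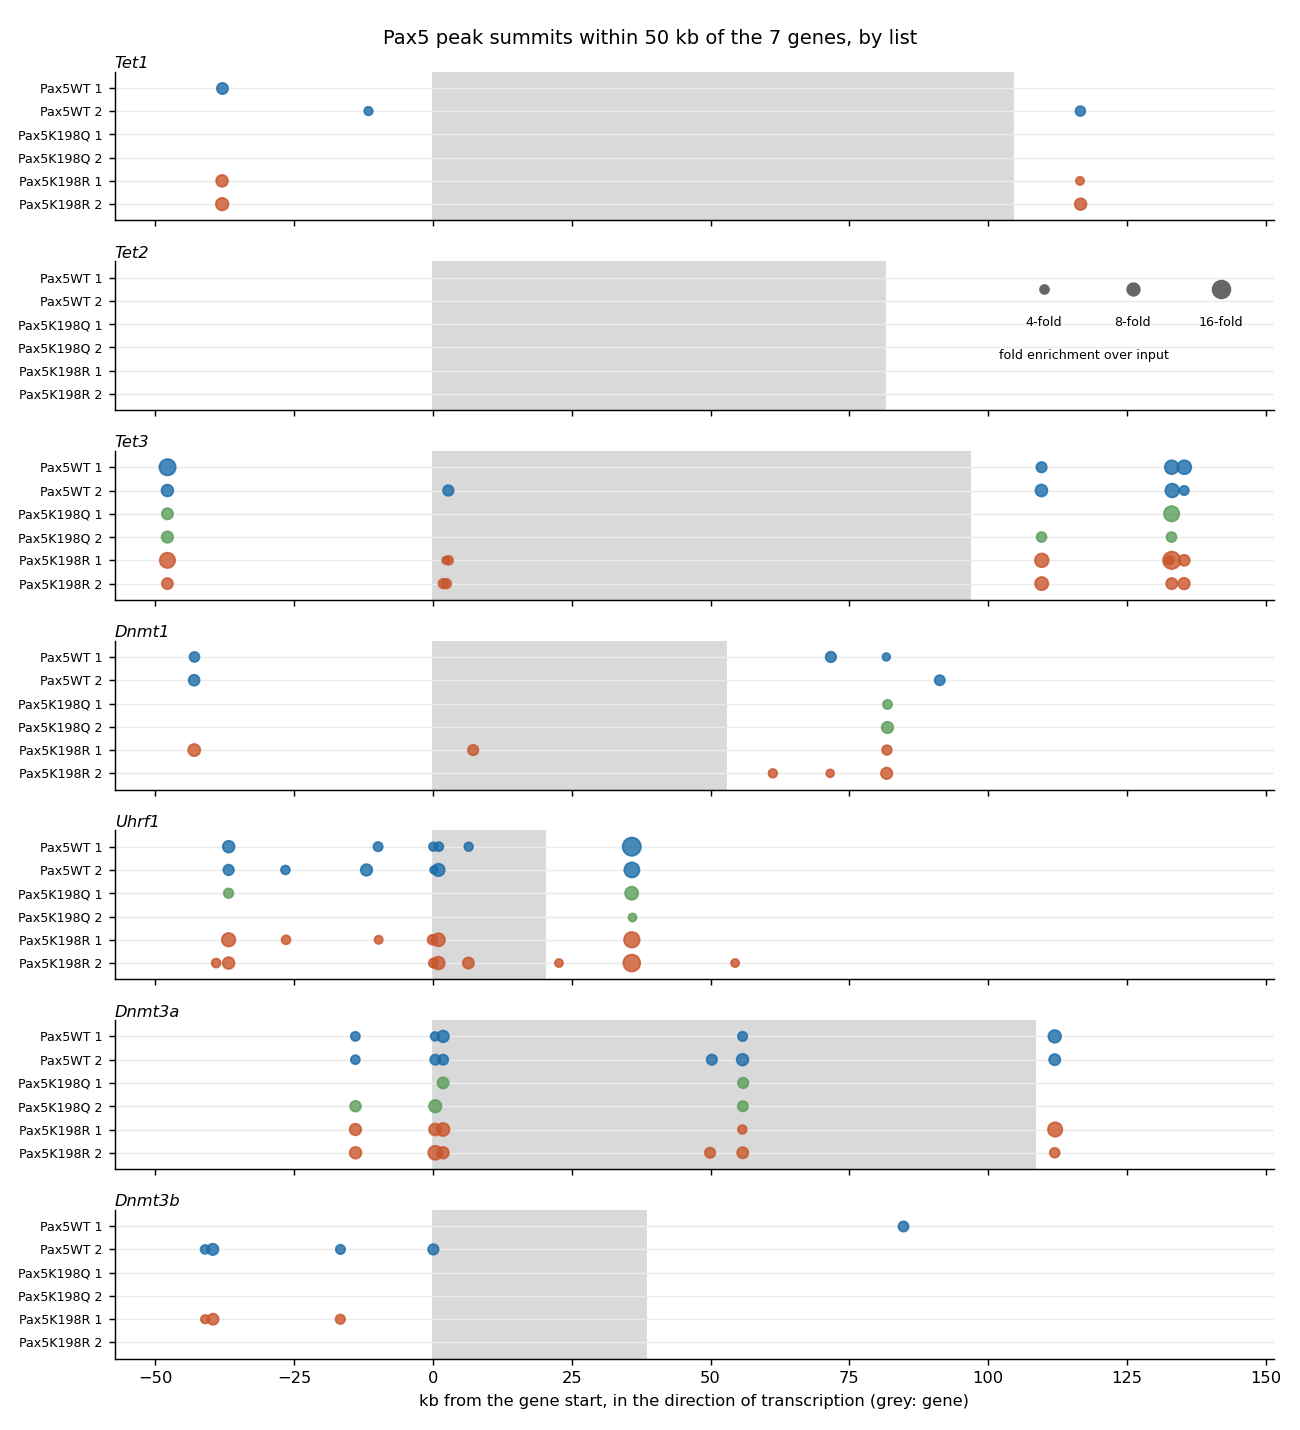
Summits of Pax5 peaks (x axis, distance in kb from the gene start in the direction of transcription, with the gene in grey) within 50 kb of the 7 genes in each of the 6 lists (y axis), with the area of a point set by fold enrichment over input. Tet1 and Tet2 have no summit in the gene, and Dnmt3a has 1 near 55.8 kb in all 6 lists.

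Tet1, at chr10:62804570-62908996 on the minus strand, had no peak in its gene in any list. The nearest peak, with its summit at -11.6 kb from the start, was in Pax5WT replicate 2 alone, with a fold enrichment of 3.72. Its summit, chr10:62920617, lay just before the start of Slc25a16 at chr10:62920633. A peak past the end of the gene, 117 kb after its start, was in Pax5WT replicate 2 with 4.91 and in both Pax5K198R lists with 3.41 and 7.0. A peak 38 kb before the start was in Pax5WT replicate 1 with 6.41 and in both Pax5K198R lists with 7.16 and 8.05. The median summit of the latter was 37 bases before the start of Dna2, the gene of a nuclease, and 38 kb from that of Tet1. Tet2, at chr3:133463679-133545139, had no peak within 50 kb in any list. Tet3, at chr6:83362373-83459084, had peaks 1.86 to 2.81 kb after its start in both Pax5K198R lists and in Pax5WT replicate 2. Farther peaks, with summits at -47.8 kb from the start and, past the end of the gene, at 133 kb, were in all 6 lists, with 6.32- to 13.6-fold and 5.15- to 15.5-fold enrichment.

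Uhrf1, at chr17:56303321-56323486 on the plus strand, had a peak about 1 kb after its annotated start in 4 lists, with fold enrichments of 4.19 and 7.91 for Pax5WT and 8.71 and 8.32 for Pax5K198R. Neither Pax5K198Q list had it. The peak overlaps the RefSeq promoter window printed above. A stronger peak 35.8 kb from the start, inside the neighbouring gene Kdm4b, was in all 6 lists with 3.38- to 17.0-fold enrichment. Dnmt1, at chr9:20907209-20959888, had a peak in its gene in Pax5K198R replicate 1 alone, with 5.57-fold enrichment at 7.24 kb, which overlaps its printed window. Dnmt3b, at chr2:153649450-153687730, had a peak at its start in Pax5WT replicate 2 alone, with 5.60-fold enrichment.

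Dnmt3a, at chr12:3806007-3914443 on the plus strand, had the only peak inside a member gene that was in all 6 lists, 55.8 kb after the start. Its fold enrichment was 4.51 and 6.99 with Pax5WT, 5.64 and 5.35 with Pax5K198Q and 3.93 and 6.37 with Pax5K198R. The values of the 3 forms overlapped. The 201 bases around the median summit, chr12:3861686-3861886 on the plus strand of GRCm38.p6, are printed for that reason, and the capitals mark the 1 match to GCNTGAC, letters of the textbook Pax5 recognition sequence, searched on both strands. The other 4 peak windows searched, at Uhrf1, at Tet1 and at both peaks near the start of Dnmt3a, had no match.
Dnmt3a: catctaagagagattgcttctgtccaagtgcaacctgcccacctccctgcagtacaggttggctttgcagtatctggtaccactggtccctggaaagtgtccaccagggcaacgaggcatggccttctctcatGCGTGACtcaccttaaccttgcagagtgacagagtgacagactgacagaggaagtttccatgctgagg
A match was present in 14.5% to 18.4% of the windows of 201 bases around the summits of a list, and in 5.36% to 6.15% of windows 1 kb away. Of windows of promoters, which are longer at 300 bases, 10.7% had one.

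Over the 24 libraries the genes whose values followed each member most closely were taken by Pearson correlation of log2 values centred within each table, among 10498 genes tested in all tables. Libraries of a table share controls, groups and batches, so that these are descriptions. Centring within a table leaves the difference between pro-B and pre-B cells given above in the values, and its part in the correlations was not tested. Dnmt1 was most like Mcm4, a subunit of the replicative helicase (r = 0.994), Smc1a (0.991) and Mcm5 (0.990). Uhrf1 was most like Ada (0.974), Mcm6 (0.973) and Xkr5 (0.972), and Dnmt1 and Uhrf1 correlated with each other at 0.977. Tet2 was most like Klf13 (0.955), Map3k1 (0.953) and Myo1g (0.952) and ran opposite to Dnmt1, at -0.923. Tet3 was most like Ttc14 (0.945), Chuk and Zbtb26 (both 0.942). For Dnmt3b the closest genes were Znhit3 (0.910), Sema4c and Gtf2i (both 0.871), for Dnmt3a Icmt (0.861), Rnf185 (0.841) and Palld (0.807; by Spearman correlation Lamb1, 0.740, Cxcl12, 0.737, and Nfib, 0.732), and for Tet1 Smim24 (0.855), Bcr (0.833) and Eci1 (0.832).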

How the data were processed

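The authors quantified reads of poly(A) libraries with Salmon on mm10, with correction for GC bias and stranded libraries, and deposited RNA-seq signal values, gene counts that DESeq2 had scaled by median-of-ratios size factors. In the table of sorted cells 100% of the values were whole reads times a factor per library, with 50004827 to 55536608 reads per library. In the other tables whole reads were not recovered, and the normalized counts of a library summed to between 28865461 and 30520853 and between 27814214 and 30160880. ChIP-seq reads were aligned by the authors with Bowtie2 and peaks called per sample over its input with MACS2, and the deposited lists give fold enrichment, a ratio to input, and −log10 of the q-value. Input libraries were not used here.

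Genes with at least 10 normalized counts in 2 libraries were tested as log2 of the value plus 1 in limma 3.58.1 (R 4.3.3), fitting all 8 libraries of a table together, with a variance trend and Benjamini-Hochberg adjustment over all genes. Fold changes are on that scale and understate those of low genes. With 2 libraries against 2 an exact test cannot go below p = 0.33, and p-values measure the spread between libraries. edgeR 4.0.16 and DESeq2 1.42.0 were run on recovered reads. Pro-B and pre-B libraries of a mouse are paired by the mouse numbers in the labels, and the correlation of their replicate differences was 0.156 in Sirt7-/- and 0.0798 in wild-type mice. Per the methods, RNA-seq replicates were made on different days. Between groups the correlation was 0.264 to 0.383 in Pax5-/- and 0.156 to 0.428 in cultured cells, so that replicate numbers were taken as pairs there and blocked values are given where they change a call. It was 0.0101 to 0.0554 between genotypes in sorted cells. The 7 genes, the gene lists and the genes named were chosen with earlier results of these data known. The genes named are the 7, Sirt7 and Pax5, cell markers, up to 3 called genes in each direction per list and comparison, and the 3 genes most like each member. Dna2, Slc25a16 and Kdm4b were named after the peaks were seen. Gene positions are those of GENCODE M21 on GRCm38, and sequences are from RefSeq on GRCm38.p6. Tests were checked on simulated data drawn without shared differences between replicates, so that the check does not cover these. Values of 1 erythroid marker and 1 TET partner, and the counts of TET partners that fell between the stages, are not reported here.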

Additional observations from a re-analysis of the deposited data

Results flagged for a closer look

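For Tet2 and Dnmt3b the libraries of the Pax5-/- progenitors and of the cultured Sirt7-/- cells lay on opposite sides of the control group with the same Pax5 form. Tet2 with Pax5K198R was 0.843 times its level with EV in Pax5-/- progenitors and 1.22 times in Sirt7-/- cells, as ratios of group means. Dnmt3b with Pax5K198R was 0.546 times its level with EV in Pax5-/- progenitors and 1.17 times in Sirt7-/- cells. Against Pax5WT the ratio of Dnmt3b with Pax5K198R was 0.678 in Pax5-/- progenitors and 1.12 in Sirt7-/- cells. In each case both libraries with Pax5K198R were on the same side of both control libraries. Of these 6 changes limma called that of Dnmt3b against EV in Pax5-/- progenitors (adjusted p = 0.00826), and the adjusted p of the others was between 0.0952 and 0.962. With the replicate as a block that of Dnmt3b against Pax5WT in Pax5-/- progenitors was also called (0.00780), beside 7.52% of all genes. Tet1 and Dnmt3a lay on the same side of EV in both cell systems, with Pax5WT and with Pax5K198R. In the remaining pairs of a member and a Pax5 comparison, the groups overlapped in either or both cell systems. The share of all genes on opposite sides is not given here. The tables were normalized separately, and the Sirt7-/- cells also expressed their own Pax5. With Pax5K198R against EV the Pax5 transcript had a log2 fold change of 3.12 in Pax5-/- progenitors and 0.43 in Sirt7-/- cells. The difference between the cell systems was not tested.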

How the results depend on the processing

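Of the counts of members called or with a peak under the alternatives, 207 stayed within 1.5 times the reported count and 26 did not. Most comparisons had no member called, and a count of 0 that stayed 0 was placed among the 207. A required fold change could only leave such a count at 0, so that the 207 does not measure how well calls held. Where a log2 change of 1.5 or more in size was also required, 2 members were called between pre-B and pro-B in wild type and 0 in Sirt7-/-, 1 with Pax5K198R against EV and 1 against Pax5K198Q in Pax5-/- cells, and 0 for Sirt7-/- Pax5K198R against wild-type EV, beside 13.9%, 10.2%, 4.59%, 2.53% and 6.23% of all genes. DESeq2 called 1 in pre-B cells between genotypes, Uhrf1, beside 4.19%. In fits of the groups compared alone, 1 was called for Pax5K198R against Pax5K198Q in Pax5-/- cells, 1 for Pax5K198R against EV in Sirt7-/- cells and 1 for Sirt7-/- Pax5K198R against wild-type EV, beside 0.829%, 5.71% and 11.3%. In the last, no filter on low values also left 1, beside 8.44%. Leaving out a replicate gave 1 to 3 calls for Pax5K198R against EV and 1 to 2 against Pax5K198Q in Pax5-/- cells, 0 to 1 for Sirt7-/- Pax5K198R against wild-type EV, 3 to 5 for pre-B against pro-B in wild type and 4 to 5 in Sirt7-/-, beside 4.28% to 11.1%, 0.241% to 6.89%, 5.84% to 9.95%, 26.9% to 30.1% and 21.3% to 33.5%. The causes of these changes were not tested.

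With the replicate block, 2 members were called for Pax5K198R against Pax5WT in Pax5-/- cells (Dnmt3b, limma, adjusted p = 0.00780), 1 for Pax5WT against EV in Sirt7-/- cells (Tet1, 0.0474), 2 for Pax5K198R against EV in Sirt7-/- cells (Tet1, 0.0130, and Dnmt3a, 0.0285) and 1 for Sirt7-/- Pax5WT against wild-type EV (Uhrf1, 0.0498). In the same order 7.52%, 1.96%, 11.6% and 12.4% of all genes were called, against 2.87%, 0.0366%, 4.83% and 4.23% without the block. With the block Dnmt3a was also called for Pax5K198R against EV in Pax5-/- cells (0.0186), beside 21.2% of all genes, against 9.92% without it. No other call of a member changed with the block, or with pairing by mouse in the stage comparisons.

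A span of 50 kb on either side gave a Pax5 peak to 6, 4 and 5 members with Pax5WT, Pax5K198Q and Pax5K198R. Counting a peak in either replicate gave 4, 1 and 4 in the same order. The share of all genes with a peak under these wider rules is not given here. These counts therefore cannot be compared with a background, and whether the members exceed it was not tested. No direction of a called value reversed. The lists of most alike genes shared 0 or 1 of 3 genes with those by Spearman correlation for every member. With 2 libraries a group, differences under the intervals given were not detectable, and Tet1 in culture, at 61.0 to 354 normalized counts, had the largest SE of any member between 2 groups, 0.569 on the log2 scale.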

Other observations

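Hmces, a protein that shields abasic sites and was placed on the list of TET partners, changed with Pax5K198R in both cell systems. In Pax5-/- progenitors it had 314 and 366 normalized counts with EV and 907 and 633 with Pax5K198R, a log2 fold change of 1.16 ± 0.249 (limma, adjusted p = 0.0256). In Sirt7-/- pro-B cells it had 4366 and 3685 with EV and 1496 and 1006 with Pax5K198R, a log2 fold change of -1.71 ± 0.298 (adjusted p = 0.0217). The groups did not overlap in either table, and the difference between the tables was not tested.

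Zbtb4, a zinc finger reader of methylated CpGs, rose from pro-B to pre-B cells in both genotypes. It had 1794 and 1907 normalized counts in wild-type pro-B, 4243 and 3231 in wild-type pre-B, 526 and 445 in Sirt7-/- pro-B and 5775 and 3748 in Sirt7-/- pre-B cells. Between the stages the log2 fold change was 1.001 ± 0.228 in wild-type (limma, adjusted p = 0.0128) and 3.26 ± 0.228 in Sirt7-/- cells (adjusted p = 0.000252). The interaction was 2.26 ± 0.322 (adjusted p = 0.246), and in pro-B cells the log2 fold change of Sirt7-/- against wild type was -1.93 ± 0.228 (adjusted p = 0.0871), so that neither passed the threshold.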
